A study of Mus musculus with 3 samples.

Results

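The miR-26 family of the mouse was examined in MIN6, a mouse insulinoma line that is used in place of pancreatic beta cells, the cells that secrete insulin. The family was taken as the 3 hairpins Mir26a-1, Mir26a-2 and Mir26b, of 1005 miRNA hairpins in the RefSeq table used here, and all 3 were found in every library. Small RNA was sequenced from 3 replicate libraries of MIN6 cells, all grown in DMEM with 25 mM glucose and heat-inactivated fetal bovine serum, with no other treatment, genotype or time point. All libraries thus belong to 1 condition, and the comparisons below are between members of the family within the same library.

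A miRNA hairpin is cut by Drosha and Dicer into a duplex of a 5p and a 3p strand, from which usually one strand is loaded into an Argonaute protein and the other is degraded. The seed, nucleotides 2 to 8 of the mature miRNA, directs the choice of target mRNAs, so that a 5′-shifted isomiR carries another seed. The miR-26 hairpins lie within the genes of the CTD small phosphatases, a family of nuclear phosphatases, and miR-26 is known as a repressor of the histone methyltransferase gene Ezh2. The terminal uridylyltransferase Zcchc11 is known to add uridines to the 3′-end of miR-26a in other cells, and such additions are read as non-templated bases in small RNA-seq.

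The mature sequences from RefSeq (build GRCm38.p6) are shown first, because every comparison below rests on where they are identical and where they differ. The seed is in capitals.
miR-26a-5p: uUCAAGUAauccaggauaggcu
miR-26b-5p: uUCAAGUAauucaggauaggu
miR-26a-1-3p: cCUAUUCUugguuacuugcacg
miR-26a-2-3p: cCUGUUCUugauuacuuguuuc
miR-26b-3p: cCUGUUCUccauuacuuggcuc
Both copies of miR-26a carry the same 5p sequence, and the seed UCAAGUA occurred in 3 of 1738 mature entries, those of this family. Counted from 1 at the 5′-end, miR-26b-5p differs from miR-26a-5p by C11U and C21U, with 19 of 21 positions identical. The 3p strands fall into separate seeds. The miR-26a-2-3p and miR-26b-3p seeds are identical (CUGUUCU, shared with Mir6932 and Mir7039), and that of miR-26a-1-3p differs by A4G. Over their length, miR-26a-1-3p and miR-26a-2-3p match at 16 of 22 positions, miR-26a-1-3p and miR-26b-3p at 14, and miR-26a-2-3p and miR-26b-3p at 18.

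Since the alignments were made to mm9, the hairpins were placed in them by sequence, asking which 5′-start had no mismatching base equal to the mature base at that position. On each chromosome and strand exactly 1 start qualified, of 21 compared for Mir26a-1, 14 for Mir26a-2 and 72 for Mir26b. The 5p arms were at chr9:118940929-118940950 for Mir26a-1, chr10:126432599-126432620 for Mir26a-2 and chr1:74440898-74440918 for Mir26b. The 3p arms were at chr9:118940968-118940989, chr10:126432637-126432658 and chr1:74440934-74440955. All 6 are on the plus strand. None of the 2672, 2840 and 985 mismatching bases recorded in the 3 hairpins equalled the hairpin's own base. At the 5p positions used to choose the start, this followed from the choice itself and is no check of the placement. The mismatching bases outside those positions were not counted separately. In GENCODE M21 (GRCm38), Mir26a-1 lies in an intron of Ctdspl and Mir26b in an intron of Ctdsp1, whereas Mir26a-2 lies in Ctdsp2 at a place that an annotated exon of that gene also covers. Each hairpin is on the strand of its host gene, and the mRNAs of the hosts were not measured in these libraries.

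The libraries held 9269795, 10816006 and 10218743 mapped reads, of which 71.3% to 71.8% aligned without a mismatch. A sequence with 0 reads could thus be present at up to 3 reads, or 0.324 reads per 1000000 mapped reads (RPM) in the smallest library. At the 388 5′-starts with at least 1000 reads in every library, no pair of libraries agreed within counting noise (chi-square per degree of freedom 93.1 to 337), so none was a repeated deposit of another. This check cannot tell separate cultures from repeat preparations of the same RNA.

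miR-26a-5p was the most abundant member. Its copies together reached 25664, 24480 and 23263 RPM in replicates 1, 2 and 3, or 24469 ± 1200 RPM (SD, n = 3). The 3 libraries lay close together, and their order did not follow that of miR-26b-5p. miR-26b-5p was expressed at 2618, 2784 and 2481 RPM, or 2628 ± 152 RPM (SD, n = 3). The lowest value of miR-26a-5p lay far above the highest of miR-26b-5p. The ratio of miR-26a-5p to miR-26b-5p was 9.80, 8.79 and 9.38, on average 9.32 ± 0.508 (SD, n = 3). miR-26a-5p was higher in 3 of 3 libraries (exact sign-flip permutation test, two-sided, p = 0.25, adjusted p = 0.25 over 6 comparisons). With 3 libraries this exact permutation test cannot go below p = 0.25, so it describes the direction only, and the same p was obtained for each of the 6 comparisons between members in these data. Among the 388 abundant 5′-starts, the start of Mir26a-2 ranked 9 or 10, that of Mir26a-1 10 or 11, and that of Mir26b between 34 and 38. The starts of Mir26a-1 and Mir26a-2 each hold only part of the shared miR-26a-5p reads, so their ranks are not that of miR-26a-5p as a whole.

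The 5p reads cannot be divided between the copies of miR-26a. The value of each copy, 12228 ± 601 RPM at Mir26a-1 and 12241 ± 600 RPM at Mir26a-2, is the result of dividing shared reads equally between the loci, since the template is identical for 25 nt from the 5p start. The same read forms with equal counts at both loci made up 99.993% to 99.999% of the Mir26a-1 reads and 99.87% to 99.90% of the Mir26a-2 reads. Beyond these, Mir26a-2 exceeded Mir26a-1 by 118, 145.5 and 149.5 reads, and 100% of this excess was 26 nt or longer, where the copies begin to differ. Of the excess, 42.4%, 39.2% and 46.2% were 22 nt of miR-26a followed by 4 uridines, a sequence that has 1 mismatch fewer at Mir26a-2 because its base 26 is U. These reads are therefore assigned to Mir26a-2 by their tail, and they carry no measure of which copy was transcribed.

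**Figure D1:**
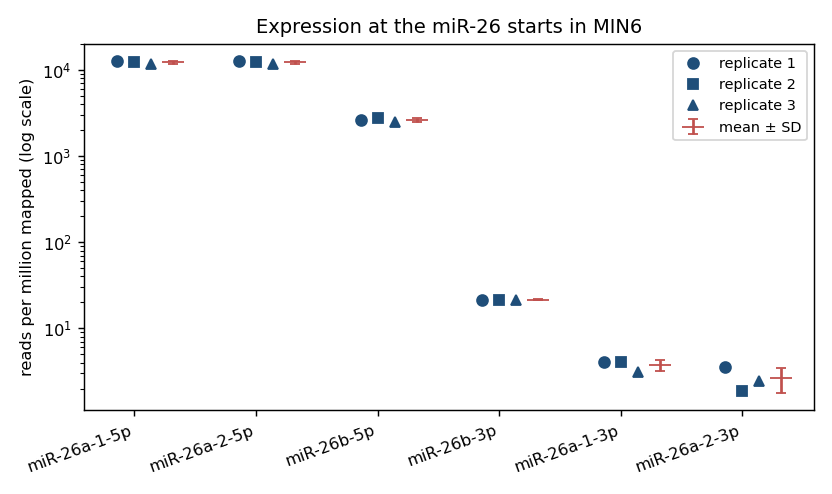
Expression at the 6 reference starts of the miR-26 hairpins, in RPM on a log axis; the blue symbols are the 3 libraries and the red bars the mean ± SD. The 5p starts lie between 2481 and 12838 RPM and the 3p starts between 1.85 and 21.6 RPM, and the equal values of miR-26a-1-5p and miR-26a-2-5p result from dividing shared reads.

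The 3p strands, which tell the copies apart, were rare for every hairpin. miR-26a-1-3p had 37.25, 43.5 and 32 reads, or 4.02, 4.02 and 3.13 RPM (3.72 ± 0.513, SD, n = 3). miR-26a-2-3p had 33, 20 and 25 reads, or 3.56, 1.85 and 2.45 RPM (2.62 ± 0.868, SD, n = 3). All values were above the 3 reads that a count of 0 allows, but replicate 1 of miR-26a-2-3p exceeded replicate 3 of miR-26a-1-3p, so the RPM of these strands overlapped. The ratio of miR-26a-1-3p to miR-26a-2-3p was 1.13, 2.18 and 1.28 (1.53 ± 0.565, SD, n = 3), above 1 in 3 of 3 libraries (exact sign-flip permutation test, p = 0.25). The share of miR-26a-1-3p in the miR-26a 3p reads was 53.0% in replicate 1 (95% Wilson interval 41.3% to 64.1%), 68.5% in replicate 2 (56.6% to 78.8%) and 56.1% in replicate 3 (43.3% to 68.2%). An equal share thus lay inside the interval of replicates 1 and 3, and a difference between the copies was not detectable at this depth in those libraries. Without replicate 2 the mean ratio was 1.20. The intervals cover counting error only, as the reads carry no molecular identifiers.

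miR-26b-3p was the most abundant 3p strand, at 21.6, 21.45 and 21.04 RPM (21.4 ± 0.287, SD, n = 3), from 200, 232 and 215 reads. It was higher than both miR-26a 3p strands in every library, although the 5p strand of the same hairpin was lower than miR-26a-5p. The 3p share of the reads at the arm starts was 0.818%, 0.764% and 0.841% for miR-26b (0.808% ± 0.0393, SD, n = 3). For miR-26a, with both hairpins summed, it was 0.0295%, 0.0240% and 0.0240% (0.0258% ± 0.00320, SD, n = 3). The groups of values did not overlap, and the share of miR-26b was 31.6 ± 3.70-fold higher (SD, n = 3; exact sign-flip permutation test of the difference, p = 0.25, same direction in 3 of 3 libraries). The 5p strand remained the dominant strand for Mir26b and for the sum of the miR-26a hairpins. For Mir26a-1 and Mir26a-2 separately this cannot be decided, because their 5p reads cannot be divided between the copies.

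The 3p strands began almost always at the annotated base. Reads at the reference start made up 97.4% to 100% of the reads within 3 nt for miR-26a-1-3p, 100% for miR-26a-2-3p in every library, and 98.2% to 99.1% for miR-26b-3p. Reads of 22 nt were the most frequent on all 3 strands. They made up 91.3%, 94.3% and 96.9% of miR-26a-1-3p reads, 87.9%, 75% and 88% of miR-26a-2-3p reads, and 68.9%, 70.3% and 70.7% of miR-26b-3p reads. The shares of miR-26b-3p were lower than those of the other 3p strands in all libraries, with 22.5%, 22.8% and 25.1% of its reads at 21 nt. A terminal mismatch was found on 6.99%, 4.74% and 3.72% of miR-26b-3p reads, and with 20 to 43.5 reads a library the tails of the miR-26a 3p strands were too few to compare.

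Between the copies of miR-26a, reads of the terminal loop were recovered mainly for Mir26a-2. The loops, defined here as the bases between a 5p strand of 22 nt and the annotated 3p start, are given because they are the third product of the same cut and the start of each is the template base that follows the 5p strand.
Mir26a-1 loop: gugcaggucccaagggg
Mir26a-2 loop: guguccguccaugagg
Mir26b loop: guggugcugaccag
Reads that spanned exactly the 16 nt loop of Mir26a-2 numbered 30, 40 and 35, against 33, 20 and 25 reads of its 3p strand. For Mir26a-1, with a loop of 17 nt, there were 3, 1 and 1 such reads against 37.25, 43.5 and 32 reads of the 3p strand. The loop reads of Mir26a-2 were thus as many as its 3p reads or more in replicates 2 and 3. Those of Mir26a-1 were present in every library, all without a mismatch, but at 3 reads or fewer. The loop of Mir26b is 14 nt long, which is the shortest read kept, and 0.125, 1 and 2.1 reads of that length were found, none of them exact. Whether loops of 14 to 17 nt are recovered equally by the alignment was not tested. A shorter read can fit more loci, and the study divided reads among loci that fit equally well. The count at Mir26b is therefore not directly comparable with those of the longer loops. Over the whole hairpins, reads starting outside the arms and the loop numbered 12 or fewer in every library.

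The 3′-ends of the 5p strands were less uniform for miR-26b than for miR-26a. Reads of 22 nt were the most frequent for both and made up 85.7%, 85.7% and 85.0% of miR-26a-5p (85.5% ± 0.427, SD, n = 3) and 76.1%, 74.7% and 73.9% of miR-26b-5p (74.9% ± 1.12, SD, n = 3). The groups did not overlap, and the difference was 10.6 ± 0.852 percentage points in the same direction in 3 of 3 libraries (SD, n = 3; exact sign-flip permutation test, p = 0.25). miR-26b-5p is annotated with 21 nt, but its reads of 21 nt made up only 12.3% ± 0.977 (SD, n = 3). The base after the annotated miR-26b-5p, at position 22, is U. Position 22 of miR-26a-5p is U as well, and so is position 21 of miR-26b-5p. A templated and an added uridine cannot be told apart at these positions. The 22 nt shares of both members can thus include shorter reads with added uridines, as can the 21 nt share of miR-26b-5p. The excess of shorter reads lay at 21 nt and 20 nt, where miR-26a-5p had 4.81% ± 0.219 and 0.350% ± 0.0129 and miR-26b-5p 12.3% ± 0.977 and 2.08% ± 0.258 (SD, n = 3). Reads of 23 nt made up 6.88% ± 0.336 of miR-26a-5p and 9.05% ± 0.131 of miR-26b-5p (SD, n = 3).

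**Figure D2:**
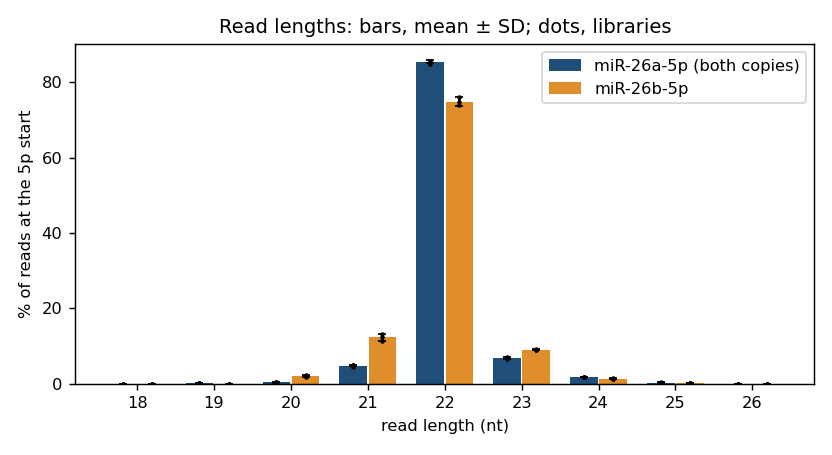
Read lengths at the 5p starts, as percent of the reads at that start, for miR-26a-5p (both copies, blue) and miR-26b-5p (orange); bars are the mean ± SD and dots the 3 libraries. The 22 nt bar is higher for miR-26a-5p (85.5% against 74.9%), and the 20, 21 and 23 nt bars are higher for miR-26b-5p.

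Reads longer than 22 nt were mostly not templated. Reads that matched the genome through 23 nt made up 0.0718% ± 0.00865 of miR-26a-5p and 0.301% ± 0.0163 of miR-26b-5p (SD, n = 3). Reads that matched through 24 nt made up 0.0243% ± 0.00121 and 0.484% ± 0.0195 (SD, n = 3). Longer templated reads were thus rare in both, and rarer in miR-26a-5p in every library. These shares were small beside the reads with mismatching tails.

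A mismatching 3′-terminal base was found on 8.15%, 7.71% and 8.39% of miR-26a-5p reads (8.08% ± 0.343, SD, n = 3) and on 9.42%, 9.38% and 9.29% of miR-26b-5p reads (9.36% ± 0.0657, SD, n = 3). miR-26b-5p was higher in each library, by 1.28 ± 0.382 percentage points (SD, n = 3; exact sign-flip permutation test, p = 0.25). This difference depended on how a tail was counted. When a mismatch in any of the last 3 bases was counted, the shares were 10.1% ± 0.471 and 10.35% ± 0.107, the difference was 0.278 ± 0.538 percentage points toward miR-26b-5p (SD, n = 3), and its direction was opposite in 1 of 3 libraries (exact sign-flip permutation test, p = 0.5). The reads gained by the wider count, whose last base matches the genome although an earlier base of the last 3 does not, were 1.99% ± 0.142 of miR-26a-5p and 0.990% ± 0.0428 of miR-26b-5p (SD, n = 3). After position 22 all 3 hairpins continue with GUG, so the second uridine of a tail added there matches the genome. The terminal count therefore leaves out tails of 2 uridines, at 1.36% ± 0.0478 of miR-26a-5p and 0.603% ± 0.0314 of miR-26b-5p reads (SD, n = 3). It thus misses more reads of miR-26a-5p than of miR-26b-5p.

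The composition of the tails differed more than their total. The base that follows position 22 in the genome is G for all 3 hairpins, so an added uridine or adenosine after 22 nt is recorded as a mismatch in each. Position 22 itself is U in all 3, so a tail counted after 22 nt may have begun earlier, with a uridine added to a shorter read. A tail of 1 uridine was found on 6.39%, 6.03% and 6.63% of miR-26a-5p reads (6.35% ± 0.301, SD, n = 3) and on 6.79%, 6.75% and 6.37% of miR-26b-5p reads (6.64% ± 0.228, SD, n = 3). These values overlapped, and miR-26b-5p was not higher in every library. A tail of 2 uridines was found on 1.39%, 1.30% and 1.38% of miR-26a-5p reads (1.36% ± 0.0478) and on 0.639%, 0.590% and 0.580% of miR-26b-5p reads (0.603% ± 0.0314, SD, n = 3). A tail of 3 uridines reached 0.215% ± 0.0237 of miR-26a-5p and 0.0149% ± 0.00594 of miR-26b-5p (SD, n = 3). The longer uridine tails were thus higher on miR-26a-5p in every library without overlap, and the ratio of 2 uridines to 1 was 0.214 ± 0.00553 for miR-26a-5p and 0.0908 ± 0.00332 for miR-26b-5p (SD, n = 3).

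Adenosine tails showed the opposite order. A tail of 1 adenosine after 22 nt was found on 0.230%, 0.224% and 0.266% of miR-26a-5p reads (0.240% ± 0.0227, SD, n = 3). On miR-26b-5p it was found on 1.82%, 1.68% and 1.961% of reads (1.82% ± 0.138, SD, n = 3). Every library of miR-26b-5p lay above every library of miR-26a-5p. The ratio of 1 uridine to 1 adenosine was 26.6 ± 1.47 for miR-26a-5p and 3.66 ± 0.381 for miR-26b-5p (SD, n = 3). The mixed tail of adenosine then uridine was alike in size, at 0.201% ± 0.0229 and 0.185% ± 0.0172 (SD, n = 3), and its values overlapped between the members. The comparisons of single tails were made as descriptions, without a test.

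**Figure D3:**
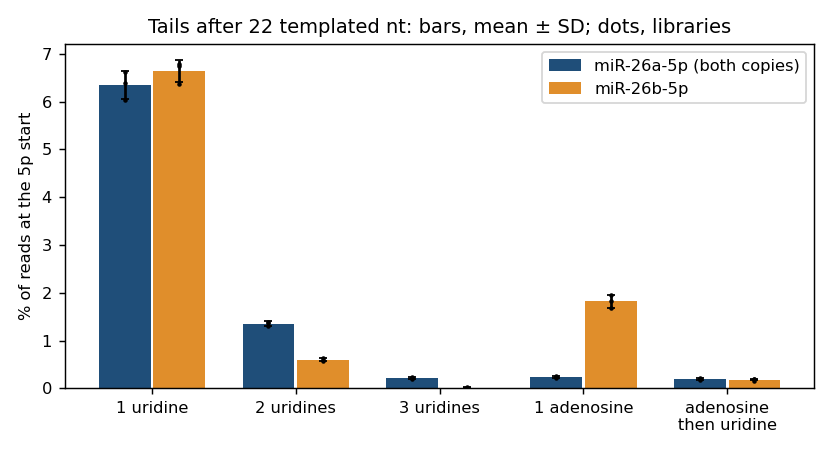
Tails that begin after 22 nt that match the template, as percent of all reads at the 5p start, for miR-26a-5p (both copies, blue) and miR-26b-5p (orange); bars are the mean ± SD and dots the 3 libraries. The bars of 1 uridine overlap in their spread (6.35% and 6.64%), those of 2 and 3 uridines are higher for miR-26a-5p, and that of 1 adenosine is higher for miR-26b-5p (1.82% against 0.240%).

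The tails were set beside those of other seed families that are made from several hairpins, let-7, miR-30 and miR-29. Of 16 mature miRNAs of these families, 12 were placed at a start with at least 1000 reads in every library, and let-7a-5p, miR-30b-5p, miR-30d-5p and miR-29b-3p were not. Tails beginning with uridine at any length made up 8.18% ± 0.382 of miR-26a-5p and 7.37% ± 0.2501 of miR-26b-5p reads (SD, n = 3). Both were above all 12, which ranged from 0.0143% for let-7f-5p to 6.05% ± 0.216 for miR-30e-5p (SD, n = 3). Where the template continues with U after the most frequent length, a first uridine added there matches the genome and is not counted, as for let-7b, c, d and g-5p, miR-29c-3p and 1 of the copies of let-7f-5p, so their shares are not directly comparable. Among those followed by G at every copy, let-7e-5p had 5.57% ± 0.401, let-7i-5p 4.27% ± 0.0292, miR-30a-5p 3.59% ± 0.0261 and miR-30c-5p 2.45% ± 0.0926 (SD, n = 3). Tails beginning with adenosine, at 1.20% ± 0.129 of miR-26a-5p and 2.49% ± 0.167 of miR-26b-5p (SD, n = 3), placed miR-26a-5p below 9 of the 12 and miR-26b-5p above 8 of them.

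Within a wider set of miRNAs the uridine tails of miR-26 lay well inside the range. Of 111 other named starts with at least 1000 reads in every library, 42 had a larger share of uridine tails than miR-26a-5p and 44 a larger share than miR-26b-5p, and the median was 3.67%. The highest share, 86.7%, belonged to miR-148b-3p. Restricted to the 33 named 5p arms whose template does not continue with U, 6 were above miR-26a-5p and 6 above miR-26b-5p, with a median of 3.40%. With a template other than U but either arm, 34 and 35 of 73 starts were above. This last pair of restrictions was chosen after their values were seen.

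**Figure D4:**
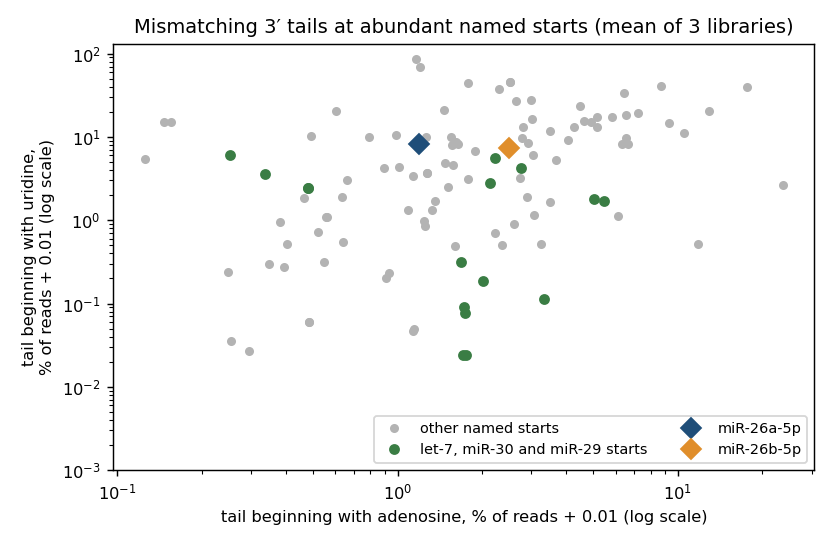
Share of reads with a mismatching tail that begins with adenosine (horizontal) and with uridine (vertical) at the named 5′-starts with at least 1000 reads in every library, mean of 3 libraries, both as percent of reads + 0.01 on log axes. The miR-26 starts (diamonds, 8.18% and 7.37% uridine) lie above all let-7, miR-30 and miR-29 starts (green) and below the highest of the other starts (grey).

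The lengths of miR-26a-5p and miR-26b-5p were each closer to those of some other named starts, let-7 members among them, than to each other. Likeness was taken as 1 minus the summed absolute difference of the length shares divided by 2, averaged over the 3 libraries, over 111 named starts. For miR-26a-5p the nearest were let-7c-5p (0.963 ± 0.00294), miR-181a-1-3p (0.9498 ± 0.00255) and let-7i-5p (0.949 ± 0.00622, SD, n = 3). For miR-26b-5p they were let-7f-5p (0.965 ± 0.00352), let-7d-5p (0.955 ± 0.0145) and let-7g-5p (0.921 ± 0.00400, SD, n = 3). The likeness between miR-26a-5p and miR-26b-5p was 0.885 ± 0.00824 (SD, n = 3). The nearest starts were picked by this same measure, so that they lie above the likeness of the members is no separate result. The start of Mir26a-1 stood for miR-26a-5p here. All these values come from the same libraries and describe length only.

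Both 5p strands began almost always at the reference base. Starts shifted by 1 to 3 nt held 0.420%, 0.421% and 0.443% of miR-26a-5p reads (0.428% ± 0.0131, SD, n = 3) and 0.156%, 0.139% and 0.130% of miR-26b-5p reads (0.142% ± 0.0134, SD, n = 3). The share of miR-26a-5p was higher by 0.286 ± 0.0250 percentage points, in 3 of 3 libraries (SD, n = 3; exact sign-flip permutation test, p = 0.25). Among reads without a mismatch the shares were 0.146% ± 0.00847 and 0.0652% ± 0.0134 (SD, n = 3), and the difference was 0.0804 percentage points. In percentiles of the 5′-starts with at least 1000 reads that were the highest within 3 nt, 332 to 334 a library, the shifted share of miR-26a-5p stood at 16.3 and that of miR-26b-5p at 6.31, so most of these starts had a larger shifted share. With a minimum of 5000 reads the percentiles were 30.6 and 7.74.

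The shifted reads of miR-26a-5p were of 2 kinds. The start 1 nt downstream, which would carry the seed CAAGUAA, held 368 to 391 reads a library, or 0.152% ± 0.0122 of the reads within 3 nt (SD, n = 3). The start 1 nt upstream, with the seed UUCAAGU, held 583 to 687 reads, or 0.254% ± 0.00829 (SD, n = 3). Neither seed occurs in the 1738 mature entries. Of the upstream reads, 99.1%, 99.6% and 99.7% began with a C that matches neither hairpin, where the template is G at Mir26a-1 and A at Mir26a-2. miR-26b-5p had 18 to 19 upstream reads, and 96.4% ± 3.13 of them began with a mismatching C as well (SD, n = 3). Fully templated upstream starts of the family were thus near absent. The starts 2 and 3 nt downstream of miR-26a-5p held 13 to 25.5 and 24 to 42 reads.

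An upstream C was also found at other miRNAs. Other named 5′-starts were compared if they were the highest within 3 nt and had at least 10 upstream reads, some of them with a mismatching first base (41, 40 and 36 starts in replicates 1, 2 and 3). Of these, 11, 11 and 10 had mismatching C on most of their upstream reads. Relative to the reads at the reference start, upstream reads with mismatching C reached at most 0.122%, 0.0827% and 0.125% over all the starts compared. For miR-26a-5p that share was 0.243%, 0.258% and 0.259%, above all of them in every library. For miR-26b-5p it was 0.0783%, 0.0598% and 0.0671%, with 4, 4 and 6 of the others above it. Starts whose upstream template base is C were not left out of the comparison. There an upstream C matches the genome and is not counted, so such starts could not show a high share. The source of the C was not tested.

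Mismatches inside the reads were concentrated at few positions. Substitutions are written with the miRNA base, the position from 1 at the 5′-end, and the read base. A9C was found on 3.60%, 3.69% and 3.25% of miR-26a-5p reads (3.51% ± 0.231, SD, n = 3) and on 3.37%, 3.39% and 3.48% of miR-26b-5p reads (3.41% ± 0.0609, SD, n = 3). The values of the members overlapped. At 16 other named starts with A at position 9, the median of A9C was 2.69%, 2.76% and 2.87%, with a range of 1.12% to 3.90%. The miR-26 values lay inside this range but near its upper end. Averaged by name, only miR-484 (3.78%) was above both members, and the next, miR-141-5p, stood at 3.10%. A16C reached 0.484% ± 0.0177 and 0.465% ± 0.0567 (SD, n = 3), against medians of 0.337% to 0.378% over 30 other starts.

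C11A of miR-26a-5p differed most between the libraries, at 1.07%, 0.807% and 0.265%. The medians of C11A over 25 other starts with C at position 11 were 0.198%, 0.368% and 0.280%. miR-26a-5p was thus above that median in replicates 1 and 2 and below it in replicate 3. The highest of the other starts reached 1.11%, 1.80% and 1.69%, so miR-26a-5p lay inside their range in every library. A-to-G changes, the type that editing by ADAR enzymes leaves in reads, were rare at all positions, with A4G the highest at 0.0716% ± 0.00335 of miR-26a-5p and A13G at 0.0781% ± 0.0145 of miR-26b-5p (SD, n = 3). Position 11, where the members differ, gave C11U in 0.0174% ± 0.00325 of miR-26a-5p and U11C in 0.125% ± 0.0138 of miR-26b-5p reads (SD, n = 3). The members also differ at position 21. A miR-26a-5p read with U at position 21 therefore has the sequence of a miR-26b-5p read with U11C. Likewise, a miR-26b-5p read with C at position 21 has that of a miR-26a-5p read with C11U. Either share can thus include reads of the other member, which was not tested.

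**Figure D5:**
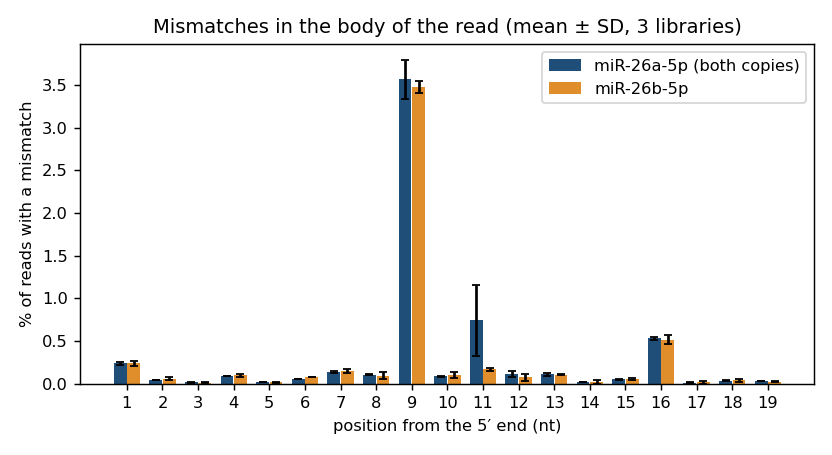
Percent of reads with a mismatch at positions 1 to 19 from the 5′-end (last 3 bases of each read left out) for miR-26a-5p (both copies, blue) and miR-26b-5p (orange), as mean ± SD of 3 libraries. Position 9 stands out in both members, and position 11 has a wide error bar in miR-26a-5p only, where C11A ranged from 0.265% to 1.07%.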

How the data were processed

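Small RNA-seq alignments of 3 MIN6 libraries were analysed. The values are expected counts that the authors deposited, 1 for each distinct alignment, after adaptor trimming with cutadapt and alignment to mm9 with Bowtie (per the labels), and then a second alignment with mismatches near exact matches. Reads that fit several loci equally well were shared out among those loci, so that the copies of miR-26a receive equal 5p counts. The counts are not normalized, and replicates were not pooled. RPM, lengths, tails and shifts were computed in Python 3.11.15 (pandas 2.3.3, numpy 2.4.6), tests used scipy 1.17.1 and figures matplotlib 3.10.9. Alignments without mismatches end 1 base early in the files, which was corrected. A tail begins at the first mismatch in the last 3 bases. A start was named when mismatches left 1 mature sequence possible at 20 bits or more over 20 positions. Of 388 starts with at least 1000 reads, 114 were named. Tested on simulated data, 146 of 148 starts were placed at their own sequence only and 0 at another sequence over the simulated positions. The simulated mismatches never carried the true base, so a start's own sequence could not be rejected. The simulation therefore does not measure how often a real start can be named. Members were compared within libraries with exact sign-flip permutation tests. The members, comparators and lists were chosen with earlier results of these data known. Named are the family's arms, shifted starts with at least 10 reads, let-7, miR-30 and miR-29, and the 3 starts most alike in length; anything else, such as miR-148b-3p, was chosen after its values were seen. The study's methods call the libraries biological replicates, and the labels do not say whether they are separate cultures.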

Additional observations from a re-analysis of the deposited data

How the results depend on the processing

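The mean direction of the 6 comparisons between members was kept under every alternative tried, although the direction of the tail difference in 1 library was not, as given above. No p could fall below 0.25, so this says nothing about significance. RPM depended on the denominator. With reads aligned without a mismatch, it was 14427 at both copies, 28855 for miR-26a-5p together, 3110.5 for miR-26b-5p, 4.52 for miR-26a-1-3p and 25.3 for miR-26b-3p. Without the most abundant start in the denominator, it was 18928 at Mir26a-1, 18949 at Mir26a-2, 37878 together, 4070 for miR-26b-5p, 5.76 for miR-26a-1-3p, 4.04 for miR-26a-2-3p and 33.1 for miR-26b-3p. With reads of 16 to 27 nt, it was 13919, 13934, 27854, 2991 and 24.3 for miR-26a-1-5p, miR-26a-2-5p, both together, miR-26b-5p and miR-26b-3p. With every start within 3 nt, miR-26b-3p was at 21.7. The ratio of miR-26a-5p to miR-26b-5p stayed between 9.09 and 9.59 under its alternatives. In percentiles of the abundant starts, with a minimum of 1000, 300 and 5000 reads, the terminal mismatches of miR-26a-5p stood at 70.9, 78.7 and 67.0 and those of miR-26b-5p at 73.1, 80.0 and 70.1. The share of the most frequent length stood at 65.5, 63.5 and 73.6 for miR-26a-5p and 50.1, 51.8 and 54.4 for miR-26b-5p. The shifted share stood at 16.3, 12.4 and 30.6 for miR-26a-5p and 6.31, 4.999 and 7.74 for miR-26b-5p. The cause of these movements was not tested beyond the change in the set of starts. The percentiles also cover starts that were not named as a miRNA. Of the 111 other named starts, 50 had a larger share of terminal mismatches than miR-26a-5p and 45 a larger share than miR-26b-5p. No paired analysis was possible because no second condition was sequenced here to which replicate numbers could link a library. The members themselves were compared within each library. Depth limits the 3p strands of miR-26a, with 20 to 43.5 reads a library, and the loop reads.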
